A study of Mus musculus with 32 samples.

Results

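The genes described here code for the factors that start and extend protein synthesis and for the enzymes that load amino acids onto tRNAs. They were followed in UB/OC-1, a conditionally immortal epithelial cell line from the embryonic mouse inner ear, as it was moved from 33 °C to 39 °C. Members were all probe sets whose single platform gene symbol begins with Eif or Eef, or is that of a cytosolic tRNA synthetase. They came to 82 probe sets, 65 on array design a and 17 on design b, of 13057 probe sets without controls. These 82 stand for 57 gene symbols. The eIF2 group, with 13 probe sets, took every symbol that begins with Eif2: eIF2, eIF2B, eIF2 kinases, Eif2a and Eif2d. There were 15 probe sets of eIF3, 14 of eIF4 and its binding proteins, 9 of other initiation factors, 11 of elongation factors and 20 of tRNA synthetases.

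The line carries a temperature-sensitive T antigen under an interferon-inducible promoter, which drives growth at 33 °C and is inactive at 39 °C. The labels call the cells at 33 °C undifferentiated and 39 °C the differentiating condition. Experiment A had day 0 at 33 °C and days 1 to 9, 11 and 14 at 39 °C, which makes 12 arrays per design. Experiment B had days 0, 2, 4 and 9, which makes 4. For the tests, the 16 arrays of a design made up 4 phases. Day 0 had 2 arrays, the early phase 4 (days 1, 2 and 3 of A with day 2 of B), the middle phase 5 (days 4, 5, 6 and 7 of A with day 4 of B) and the late phase 5 (days 8, 9, 11 and 14 of A with day 9 of B). Arrays of neighbouring days stand in for replicates within a phase, so the spread behind each p-value includes change between days, and nothing in the labels says how many cultures were grown. All comparisons with day 0 share the same 2 day 0 arrays per design, and temperature and time in culture cannot be told apart in them.

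In translation, eIF2 delivers the initiator tRNA to the small ribosomal subunit, eIF3 is the large scaffold of that subunit's initiation complex, and the eIF4 factors bind the cap of the mRNA and unwind its leader. The eEF1 factors then bring charged tRNAs to the ribosome, and eEF2 moves the ribosome along. Growing cells are known to express these genes highly. The genes of several synthetases are also known targets of ATF4, the transcription factor of the integrated stress response, and those of several initiation factors are known targets of Myc.

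Deposited intensities of every array had been scaled to the same trimmed mean, near 300.4 on design a and 300.6 on design b. Values below a floor, 141 on design a and 198 on design b, were set to it before taking log2, and 44.3% to 50.8% of probe sets on a design a array and 30.9% to 40.4% on a design b array lay above it. The noise level, taken as the size of an array's negative values, had a median of 155.5 over the design a arrays of experiment A and of 83.0 over those of experiment B. The log2 ratio of the 3′ to the 5′ Gapdh control probe set was also higher in experiment A, with medians of 0.43 against -0.31 on design a. It also moved with the phases: its medians were 0.09, 0.13, 0.22 and 0.64 on design a and -0.17, 0.27, 0.50 and 0.58 on design b at day 0 and in the early, middle and late phases. With this ratio as a covariate 14 members passed in the middle phase, beside 370 higher and 376 lower of all 7726 probe sets tested. Early, 1 member rose and 7 fell, beside 160 and 209 of all. Late, 2 members rose and 15 fell, beside 423 and 473 of all. The labelled cell type was only partly visible: of 8 hair cell and otic marker probe sets, 7 were above the floor on at least 2 arrays, and Atoh1, a defining hair cell factor, was above it on none. Their summed mean intensity was 978 at day 0 and 1334, 1591 and 1855 in the early, middle and late phases. Over the same phases, the summed fibroblast and mesenchyme markers went from 419.5 to 3030, 10171 and 16272, nearly all of it late being decorin (Dcn, 75 at day 0 and 15935 late), while every Col1a2 probe set and Thy1 were above the floor on no array. The Col1a1 probe sets were above it on 14, 11 and 8 arrays. The macrophage and blood markers summed to between 3889 and 7828. Csf1r and Adgre1 were above the floor on no array, but Ptprc and Lyz2 were above it on 16 and Cd68 on 14. The melanocyte and glia markers summed to between 1059 and 1665, with Mitf above the floor on no array, the skeletal muscle markers to between 2767 and 3455, with Acta1 above it on no array, and the endothelial markers to between 99.0 and 416, with Cdh5 and Pecam1 above it on none. In these same lists, Dct, Myog and 1 Ckm probe set were above the floor on 16 arrays, and Kdr on 13. The part of these markers in the results below was not tested, and in bulk RNA fewer cells of a type and less RNA per cell cannot be told apart.

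Most members were lower at 39 °C than at 33 °C. Of the 67 member probe sets that passed the filter (above the floor on at least 2 of the 16 arrays), 49 had a lower mean in the early phase than at day 0, 54 in the middle phase and 57 in the late phase. Their median log2 difference from day 0 was -0.51, -0.60 and -0.57, against 0.05, 0.08 and 0.11 over all 7726 probe sets tested. Past the threshold (limma, Benjamini-Hochberg adjusted over all tested probe sets, 0.05), 6 members fell and 1 rose early, 8 fell and 1 rose in the middle phase, and 11 fell and 2 rose late. These counts make 10.4%, 13.4% and 19.4% of the members tested, beside 3.49%, 8.19% and 10.9% of all probe sets. By direction, 2.05%, 4.58% and 6.08% of all probe sets fell and 1.45%, 3.61% and 4.84% rose. The counts rest heavily on the day 0 array of experiment B: without it 2, 4 and 6 members passed, beside 1.63%, 4.15% and 5.2% of all probe sets. Without the day 0 array of experiment A, 7, 10 and 12 passed, beside 3.52%, 6.59% and 8.65%. In experiment A alone, which has 1 day 0 array, 19 of the 29 calls ended. With the experiment (A or B) as a block, 8 members passed early, beside 6.07% of all probe sets. In the middle phase 16 passed, 15 of them lower, beside 12.4%, and late 18, beside 14.5%. The early, middle and late arrays did not overlap the 2 day 0 arrays for 22, 27 and 33 of the 67 members. Of all probe sets tested, 15.7%, 20.5% and 21% did not overlap, so such separation, given for single genes below, was not rare.

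**Figure D1:**
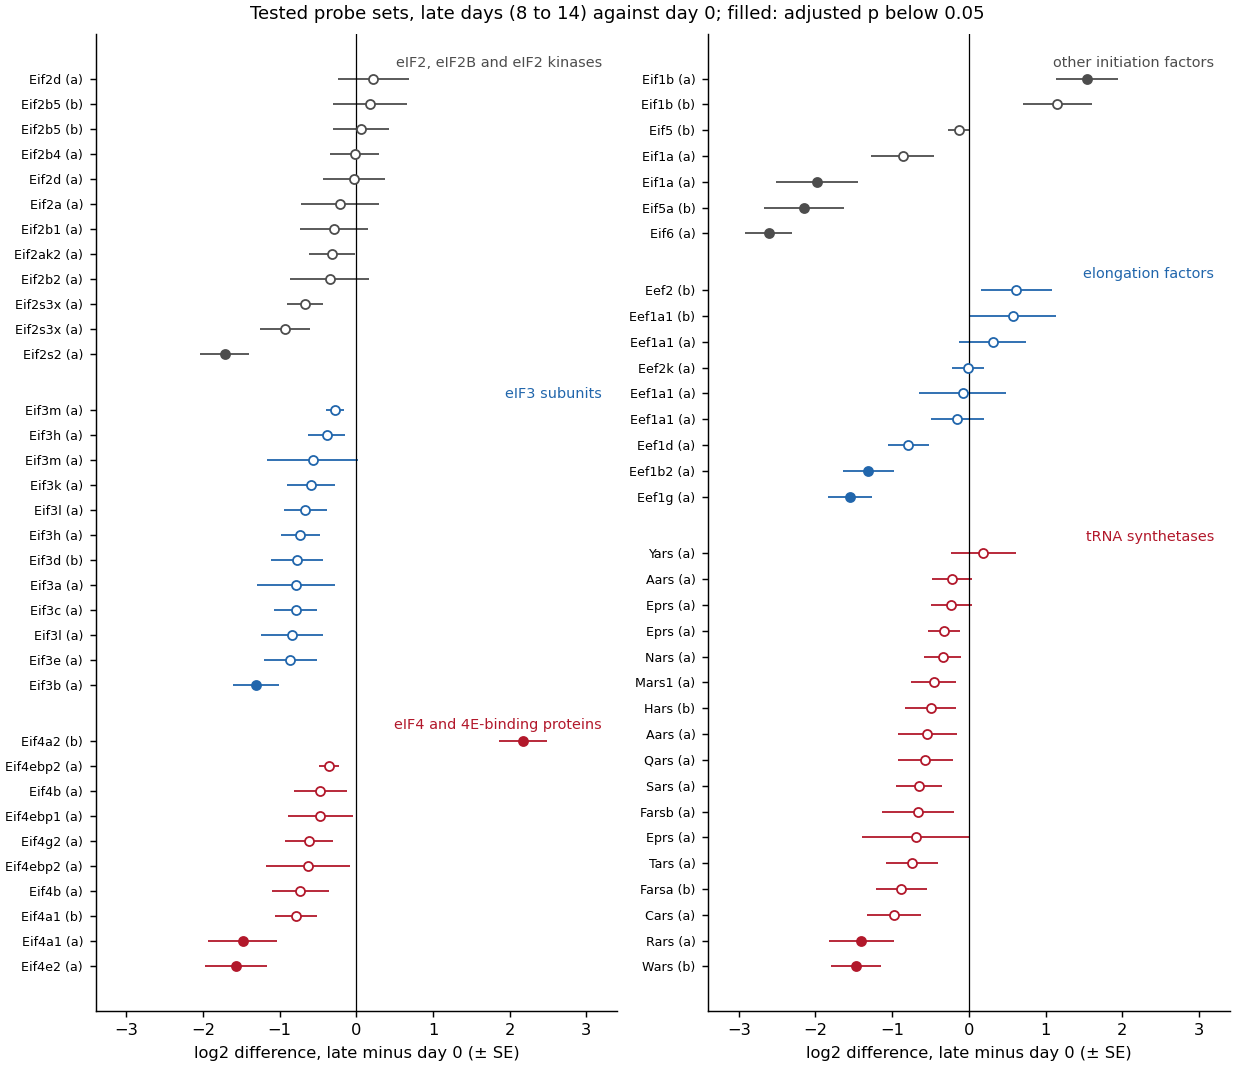
Log2 difference between the late days (n = 5 arrays) and day 0 (n = 2 arrays) with its standard error for each of the 67 tested member probe sets, grouped by role and labelled with the array design in brackets. Filled points passed an adjusted p of 0.05. Points lie left of 0 for 57 of the 67, and Eif4a2, at 2.17, lies farthest to the right.

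The same direction was seen inside each experiment. At day 9, 37 of the 67 members were lower than at day 0 in both experiments (55.2%) and 6 were higher in both (8.96%), whereas of all tested probe sets 19.8% were lower and 26.4% were higher in both. At day 2, 37 members were lower in both (20.7% of all probe sets were), and at day 4, 39 were (22.8% of all). Floored values were used, so a probe set at the floor on both arrays of an experiment counted as neither lower nor higher. The members and all probe sets were not matched for signal, so these shares also depend on how many were above the floor. The median member differed from day 0 at day 9 by -0.38 in experiment A and by -0.70 in experiment B, and the median of all probe sets by 0.00 in each. Relative to each probe set's own mean over the 16 arrays, the median member stood at 0.32 on the day 0 array of experiment A and at 0.60 on that of experiment B. It stood at 0.14 at day 1 of experiment A and between -0.22 and -0.03 on all other arrays. The 2 day 0 arrays were thus the highest, and day 1 of experiment A lay between them and the rest.

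**Figure D2:**
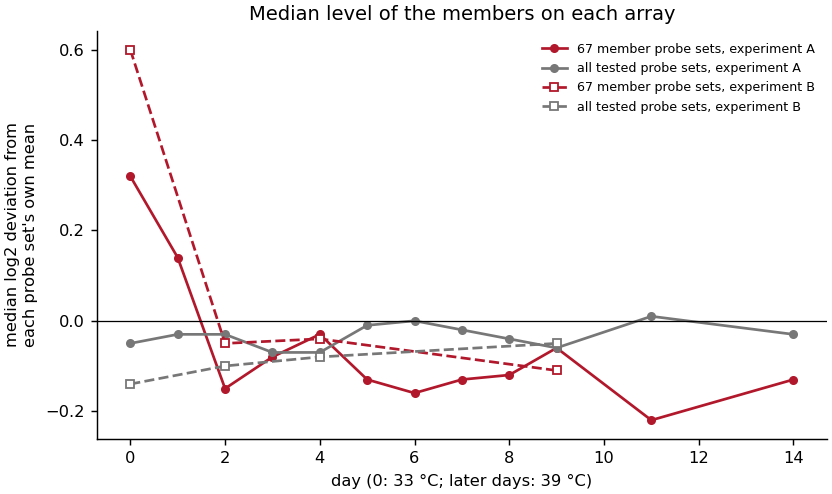
Median log2 deviation of the 67 tested members (red) and of all tested probe sets (grey) from each probe set's own mean over 16 arrays, by day, for experiment A (filled, solid) and experiment B (open, dashed). The members start at 0.32 and 0.60 at day 0 and lie between -0.22 and -0.03 from day 2 on, while the median of all probe sets stays between -0.14 and 0.01.

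Promoter sequence was examined because the members mostly moved together while a few moved the other way. RefSeq windows on GRCm38.p6, from 250 bases before to 50 bases after each gene's start, matched 43 of the 57 member genes. The E-box CACGTG, which Myc and other helix-loop-helix factors recognise and which reads the same on both strands, occurred in 12 of the 43 (27.9%), compared with 12.8% of genes with a tested probe set and 8.91% of protein-coding genes. The 12 were Aars, Eef2, Eef2k, Eif1b, Eif3a, Eif3k, Eif4a1, Eif4e, Eif4h, Eif5a, Farsb and Tars, among them genes that fell (Aars, Eif4a1, Eif5a) and 1 that rose (Eif1b). Eef2, Eef2k, Eif3a, Eif3k, Farsb and Tars passed in no phase comparison, and Eif4e and Eif4h were not tested. The C/EBP-ATF element TGATGNAA, through which ATF4 is known to act, was found on either strand in 5 (11.6%): Aars, Eef2k, Eif2s3x, Tars and Yars. The share was 2.82% of genes with a tested probe set and 4.13% of protein-coding genes. These matches describe letters only, and the members' shares rest on few genes. The 250 bases before the start are shown for the eIF4A pair, of which Eif4a2 rose and 1 of the 2 Eif4a1 probe sets fell late, for Eif5a and Eif1b, which did so with an E-box in each, and for Aars, which holds both motifs. Capitals mark the motifs; the capitals TTGCATCA in Aars are a C/EBP-ATF element read on the other strand.
Eif4a1, chr11:69672424-69672673, minus strand: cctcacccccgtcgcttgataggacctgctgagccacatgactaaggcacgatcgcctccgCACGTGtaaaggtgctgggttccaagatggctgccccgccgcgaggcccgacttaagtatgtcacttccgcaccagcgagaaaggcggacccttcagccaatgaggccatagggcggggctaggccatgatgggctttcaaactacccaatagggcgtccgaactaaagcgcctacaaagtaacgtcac
Eif4a2, chr16:23107218-23107467, plus strand: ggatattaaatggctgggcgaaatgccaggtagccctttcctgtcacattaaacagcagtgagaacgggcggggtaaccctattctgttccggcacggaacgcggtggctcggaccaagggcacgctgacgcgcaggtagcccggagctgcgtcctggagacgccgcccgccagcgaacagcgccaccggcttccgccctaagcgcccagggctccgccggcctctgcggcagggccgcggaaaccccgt
Eif5a, chr11:69921387-69921636, minus strand: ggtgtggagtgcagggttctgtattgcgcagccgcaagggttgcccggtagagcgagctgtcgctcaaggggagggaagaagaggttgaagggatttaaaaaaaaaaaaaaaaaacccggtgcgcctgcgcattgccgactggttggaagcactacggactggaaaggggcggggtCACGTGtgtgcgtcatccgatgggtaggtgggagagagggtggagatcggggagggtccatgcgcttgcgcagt
Eif1b, chr9:120492356-120492605, plus strand: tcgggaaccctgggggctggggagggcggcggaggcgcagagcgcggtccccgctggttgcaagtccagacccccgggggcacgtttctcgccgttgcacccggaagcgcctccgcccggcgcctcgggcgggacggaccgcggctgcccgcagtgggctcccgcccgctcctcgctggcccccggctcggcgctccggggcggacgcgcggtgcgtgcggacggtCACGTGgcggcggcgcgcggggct
Aars, chr8:111033592-111033841, plus strand: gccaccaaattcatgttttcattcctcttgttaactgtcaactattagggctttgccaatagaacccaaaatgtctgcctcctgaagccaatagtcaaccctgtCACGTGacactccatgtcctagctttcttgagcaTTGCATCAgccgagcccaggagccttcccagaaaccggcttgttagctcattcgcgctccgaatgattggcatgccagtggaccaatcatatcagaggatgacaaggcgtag
The E-box began 189 bases before the start of Eif4a1, 74 before that of Eif5a, 24 before that of Eif1b and 146 before that of Aars, whose C/EBP-ATF elements began 112 bases before the start and 9 bases after it, the latter outside the stretch shown. The window of Eif4a2 held neither motif.

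Among the eIF4 factors, Eif4a2 changed most. It codes for one form of eIF4A, the RNA helicase that unwinds mRNA leaders, and Eif4a1 codes for the other form. In experiment A the intensity of Eif4a2 was 1360 at day 0 and 2652, 3861, 7278, 6985, 7531, 8636, 7434, 7189, 8689, 5998 and 6380 on the following days. In experiment B it was 1732, 5870, 6915 and 6581 on days 0, 2, 4 and 9. Every array at 39 °C was above both day 0 arrays, and from day 3 on no array was below 5998. Eif4a2 rose by 1.58 ± 0.33 on the log2 scale early (2.98-fold, adjusted p = 0.0087), by 2.28 ± 0.31 in the middle phase (4.87-fold, adjusted p = 0.000158) and by 2.17 ± 0.31 late (4.50-fold, adjusted p = 0.000175). Within experiments, its day 9 value was 2.68 above day 0 on the log2 scale in A and 1.93 above it in B. The early difference did not pass without the day 0 array of experiment A (adjusted p = 0.0875); the middle and late ones passed in every alternative.

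Eif4a1, the copy that is usually the more abundant in growing cells, had 2 probe sets, both of the kind shared by a gene family, so that related transcripts may add to them. On design b it read 7061, 3815, 4049, 3974, 3849, 5053, 3456, 3982, 3407, 3982, 2555 and 3539 over the 12 days of experiment A, and 4290, 3647, 3056 and 2622 in experiment B. On design a its intensity was 2108 at day 0 of experiment A and 4083 at day 0 of experiment B, and between 518 and 1991 on the late arrays. In both, every late array was below both day 0 arrays. The design a probe set fell by 1.48 ± 0.45 on the log2 scale late (2.79-fold, adjusted p = 0.0415), and over the time course its adjusted p was 0.00573. That late call ended without the day 0 array of experiment B (2.01-fold, adjusted p = 0.496) or without day 4, 9, 11 or 14 of experiment A (adjusted p between 0.0536 and 0.085). It also ended with quantile normalization (adjusted p = 0.0631), a lower floor (0.0517), no filter (0.108) and plain moderation (0.0604), and in experiment A alone (0.384). The design b probe set differed by -0.79 ± 0.27 late (adjusted p = 0.0698), and passed with experiment as a block (-0.90 ± 0.21, adjusted p = 0.00757).

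**Figure D3:**
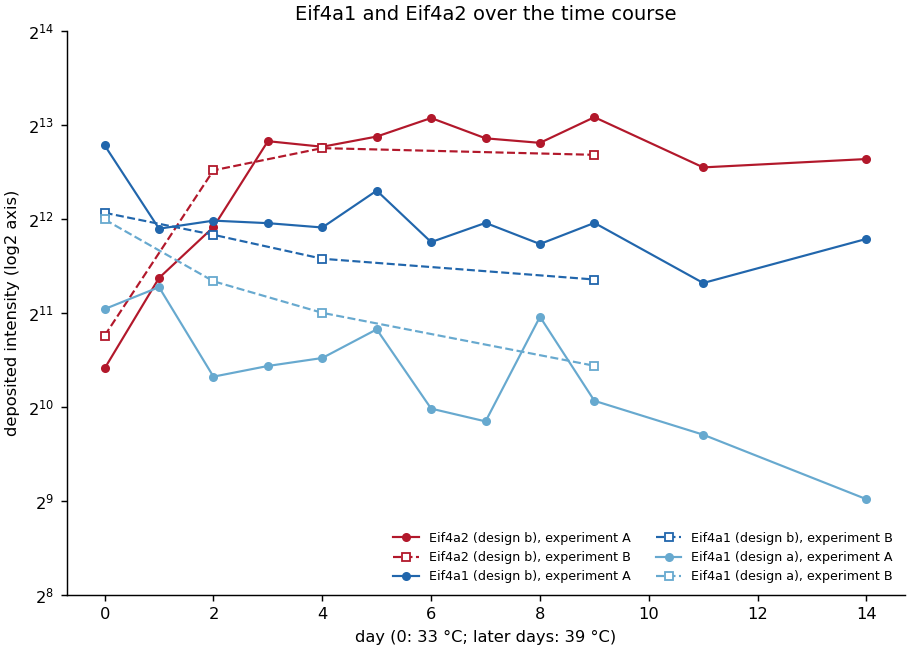
Deposited intensity of Eif4a2 (red) and of the 2 Eif4a1 probe sets (blue) by day on a log2 axis, with experiment A as filled points and solid lines and experiment B as open squares and dashed lines. Eif4a2 goes from 1360 and 1732 at day 0 to 5998 or more from day 3 on, while Eif4a1 on design b goes from 7061 and 4290 at day 0 to between 2555 and 3982 late.

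Eif4e2, a cap-binding protein related to eIF4E, fell late by 1.57 ± 0.41 on the log2 scale (2.98-fold, a low estimate because day 8 of experiment A was at the floor, adjusted p = 0.0179). Its intensity was 663 and 761 at day 0 and 112, 215, 195, 336 and 388 on the late arrays, which did not overlap. The call ended without the day 0 array of experiment A (adjusted p = 0.0699) or of B (adjusted p = 0.16). The 4E-binding protein gene Eif4ebp1, a repressor of cap-dependent initiation, read 4227 at day 0 in experiment A and 2214 in B, and its late values of 1956, 1864, 3985, 2682 and 1366 overlapped these (log2 difference -0.47 ± 0.42, adjusted p = 0.563). Its middle difference passed with experiment as a block (-0.93 ± 0.26, adjusted p = 0.0228). Eif4g2, a scaffold related to eIF4G that serves cap-independent initiation, differed by -0.62 ± 0.31 late (adjusted p = 0.253). In all, 9 of the 10 tested eIF4 probe sets lay below day 0 in the late phase, with a median of -0.62, and 2 fell and 1 rose. Eif4e itself was above the floor on no array, with a highest intensity of 74, and was not tested.

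Of the remaining initiation factors, Eif6 and Eif5a were lowest relative to day 0. eIF6 keeps free large ribosomal subunits from joining small ones and takes part in making them. Its intensity was 768 and 963 on the day 0 arrays of experiments A and B, and 339 at day 2 of experiment B. All other arrays were below the floor, with values from 43 down to -939, that is, with no positive signal on most of them. Eif6 was therefore at least 6.10-fold lower in the middle and late phases (-2.61 ± 0.31 on the log2 scale, adjusted p = 3.11e-05 and 2.81e-05). In the early phase it fell by 2.29 ± 0.32 (4.90-fold with 3 of 4 arrays at the floor, adjusted p = 0.000322), a call that ended on the arcsinh scale (adjusted p = 0.186).

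Eif5a, which helps the ribosome past stretches such as runs of proline and carries the amino acid hypusine, read 4915, 3377, 1338, 1136, 1109, 634, 378, 1260, 416, 1321, 1455 and 1362 over experiment A. In experiment B it read 3738, 1329, 858 and 778. Both day 0 arrays were above all others, and day 1 of experiment A was the next highest. It fell by 2.46 ± 0.52 on the log2 scale in the middle phase (5.50-fold, adjusted p = 0.0052) and by 2.15 ± 0.52 late (4.43-fold, adjusted p = 0.0111). Its early difference of -1.41 ± 0.54 did not pass (adjusted p = 0.218). Without the day 0 array of experiment A the middle and late p were 0.0679 and 0.102, and without that of B the late p was 0.065. A second Eif5a probe set, on design a, was negative on all 16 arrays and was not tested.

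eIF1 and eIF1A act together in scanning for the start codon. Eif1 itself had no probe set among the members, and Eif1b and Eif1a differed in direction. Eif1b, a close relative of eIF1, read 269 and 568 at day 0 and 2079, 1220, 681, 1214 and 911 on the late arrays of design a, with no overlap. It rose late by 1.54 ± 0.40 on the log2 scale (2.91-fold, adjusted p = 0.0173), but by 1.00 (2.00-fold, adjusted p = 0.237) once the day 0 array of experiment A was left out. Its design b probe set differed late by 1.15 ± 0.45 (adjusted p = 0.121), and at day 9 by 1.02 in experiment A and 1.07 in experiment B. One Eif1a probe set, at 1117 and 581 at day 0 and 418, 303, 123, 111 and 115 late, fell by 1.98 ± 0.54 (3.94-fold, a low estimate, adjusted p = 0.0234). That call ended without the day 0 array of experiment A (adjusted p = 0.21), without that of B (5.46-fold, adjusted p = 0.0525) and without day 14 (adjusted p = 0.0501), and with no filter (adjusted p = 0.0607). Its middle difference also passed with the block (-1.60 ± 0.42, adjusted p = 0.0175). The other Eif1a probe set differed by -0.86 ± 0.41 late (adjusted p = 0.224). Of the 7 tested probe sets in this group, 3 fell and 1 rose late, with a median of -0.86.

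In the eIF2 group the β subunit of eIF2, Eif2s2, fell while the other probe sets did not pass. Its intensity over experiment A was 2018, 1670, 971, 1448, 1282, 838, 906, 841, 485, 1145, 658 and 576, and over experiment B it was 2686, 1106, 978 and 827. Both day 0 arrays exceeded all later ones. Eif2s2 fell by 1.28 ± 0.32 on the log2 scale in the middle phase (2.43-fold, adjusted p = 0.0161) and by 1.72 ± 0.32 late (3.30-fold, adjusted p = 0.00143). Without the day 0 array of experiment B the middle p was 0.212, while the late call held without any single array. The γ subunit, Eif2s3x, had 2 probe sets that differed late by -0.67 ± 0.23 (adjusted p = 0.0664) and -0.93 ± 0.33 (adjusted p = 0.0799). The first of these passed with experiment as a block in the middle phase (-0.64 ± 0.20, adjusted p = 0.0498) and late (-0.68 ± 0.20, adjusted p = 0.0318).

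The genes of eIF2B, the exchange factor that recharges eIF2 with GTP, did not pass. The probe sets of Eif2b1, Eif2b2, Eif2b4 and Eif2b5 had late log2 differences between -0.35 and 0.18, but the experiments differed. At day 9, Eif2b2 was 0.55 above day 0 on the log2 scale in experiment A and lay at -1.03 in experiment B, and 1 of the 2 Eif2b5 probe sets lay at 1.07 and -1.18. Eif2a differed late by -0.21 and the 2 Eif2d probe sets by -0.03 and 0.22. Eif2ak2, the interferon-induced and RNA-activated eIF2 kinase PKR, was dim: it lay above the floor on 8 of 16 arrays, with 301 as its highest intensity, and differed by -0.54 ± 0.31 early (adjusted p = 0.561). The median of the 12 tested probe sets of this group, Eif2a and Eif2d included, was -0.15 early, -0.13 in the middle phase and -0.25 late. Eif2s1, Eif2ak3 and Eif2ak4 were not analysed here.

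All 12 tested eIF3 probe sets lay below day 0 in the middle and late phases, with medians of -0.66 and -0.75, but only Eif3b passed. Eif3b codes for a core subunit that carries an RNA-binding domain. It read 3261, 2060, 874, 1569, 1704, 1337, 1668, 1429, 892, 1498, 1612 and 1366 in experiment A, and 3041, 1328, 1261 and 1115 in experiment B. The 2 day 0 values were the highest, again followed by day 1. Eif3b fell by 1.18 ± 0.31 on the log2 scale early (2.26-fold, adjusted p = 0.0404), by 1.10 ± 0.30 in the middle phase (2.14-fold, adjusted p = 0.0272) and by 1.31 ± 0.30 late (2.48-fold, adjusted p = 0.00697). The late p was 0.0593 without the day 0 array of experiment A and 0.0574 without that of B. The middle call ended without either day 0 array or without day 5 or 7 of experiment A (adjusted p between 0.0539 and 0.146). The early call ended without any one of 11 arrays (adjusted p between 0.0503 and 0.186). Both also ended with quantile normalization (adjusted p = 0.0518 in the middle phase and 0.0631 early) and with no filter (0.0626 and 0.0952). Late differences of the other probe sets ran from -0.28 to -0.86. Eif3c passed with experiment as a block in the middle phase (-0.91 ± 0.27, adjusted p = 0.0323), and 1 of the 2 Eif3h probe sets late (-0.73 ± 0.23, adjusted p = 0.0372). The latter also passed over the time course without the block (adjusted p = 0.0352). Eif3a, Eif3d, Eif3e, Eif3k, Eif3l and Eif3m passed in no comparison.

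**Figure D4:**
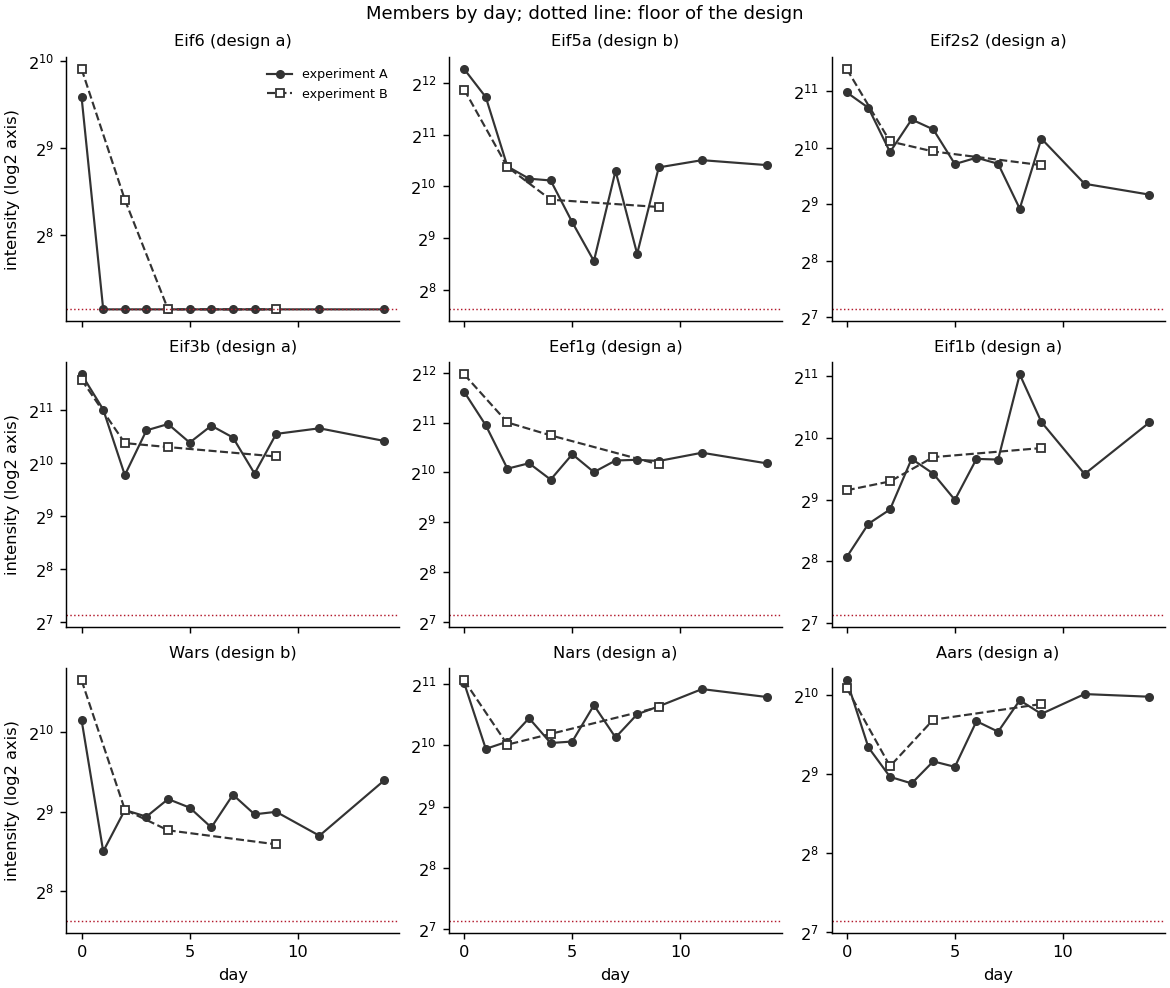
Intensity by day on log2 axes for 9 members, with values below the floor (dotted line) set to it, experiment A as filled points and experiment B as open squares. Eif6, Eif5a, Eif2s2, Eif3b, Eef1g and Wars are highest at day 0 in both experiments, Eif1b is lowest there, and Nars and Aars dip on days 1 to 5 and lie nearer to day 0 late, with Aars between 870 and 1036 on the late arrays against 1168 and 1090 at day 0.

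Among the elongation factors, subunits of the exchange complex eEF1B fell while eEF1A and eEF2 did not pass. The γ subunit Eef1g read 3140, 1970, 1077, 1162, 925, 1317, 1027, 1207, 1219, 1199, 1345 and 1160 in experiment A, and 4005, 2050, 1713 and 1143 in experiment B. It fell by 1.24 ± 0.30 on the log2 scale early (2.37-fold, adjusted p = 0.0239), by 1.55 ± 0.29 in the middle phase (2.93-fold, adjusted p = 0.00186) and by 1.55 ± 0.29 late (2.93-fold, adjusted p = 0.00155). The late call passed in every alternative. The middle p was 0.0524 without the day 0 array of experiment B, and the early call ended without either day 0 array or day 2 or 3 of experiment A (adjusted p between 0.056 and 0.263), and with quantile normalization, no filter or early as days 1 and 2 (adjusted p between 0.058 and 0.0749). The β subunit Eef1b2 read 2063 and 2977 at day 0 and 777, 1241, 891, 931 and 1247 late. It fell late by 1.31 ± 0.33 (2.48-fold, adjusted p = 0.0123), a call that ended without the day 0 array of experiment B (adjusted p = 0.217). The probe sets of Eef1g and Eef1b2 are of the kind shared by a gene family, so that related transcripts may add to them. The δ subunit Eef1d read 3872 and 3552 at day 0 and between 1668 and 3069 late, and differed by -0.79 ± 0.27 (adjusted p = 0.0749). It passed with experiment as a block in the middle phase (-0.88 ± 0.25, adjusted p = 0.0283) and late (-0.86 ± 0.25, adjusted p = 0.0259).

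Eef1a1, which carries charged tRNA to the ribosome and is among the most abundant messages of a cell, had 4 probe sets, all shared by a family. The brightest on design a read 25266 and 8519 on the 2 day 0 arrays and 18531, 15857, 23641, 22852 and 12629 late. The one on design b read 22089 and 6831 at day 0 and 28143, 24826, 9709, 25377 and 12275 late. In both, the day 0 arrays of the 2 experiments lay farther apart than the phases did, and late differences over the 4 probe sets ran from -0.15 to 0.58, none of them past the threshold. Eef2, on design b, read 10117 and 5509 at day 0 and 9744, 11411, 20624, 14756 and 5847 late (log2 difference 0.62 ± 0.46, adjusted p = 0.477). Eef2k, the kinase that inhibits eEF2, was above the floor on 4 of 16 arrays and differed late by -0.01 ± 0.21 (adjusted p = 1). Eef1a2, the form of neurons and muscle, was above the floor on no array (highest value 108) and was not tested. Neither was a second Eef2 probe set, which was negative on all 16 arrays. The median of the 9 tested elongation probe sets was 0.06 early and -0.08 late.

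The tRNA synthetases lay below day 0 nearly throughout, although few passed. Of 17 tested probe sets, 15 lay below day 0 early, 16 in the middle phase and 16 late, with medians of -0.83, -0.64 and -0.57. Wars, the tryptophanyl-tRNA synthetase, which is known to be induced by interferon, was low from day 1 on. It read 1135, 362, 519, 490, 571, 530, 446, 593, 500, 511, 415 and 672 in experiment A, and 1604, 521, 435 and 385 in experiment B. Every later array was below both day 0 arrays. Wars fell by 1.53 ± 0.34 on the log2 scale early (2.88-fold, adjusted p = 0.014), by 1.40 ± 0.33 in the middle phase (2.64-fold, adjusted p = 0.0108) and by 1.47 ± 0.33 late (2.77-fold, adjusted p = 0.0061). Without the day 0 array of experiment B these p were 0.21, 0.184 and 0.132. At day 9 its log2 difference from day 0 was -1.15 in experiment A and -2.06 in experiment B.

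Of 21 tested probe sets of interferon-induced genes, 10 fell early, 13 in the middle phase and 13 late, when 1 rose. Their median differences were -1.26, -1.60 and -2.03, and late 15 of the 21 lay below day 0 and 6 above it. The 1 that rose late, named after its values were seen, was Ifit3 (3.76-fold, adjusted p = 0.00873). The mean intensity of Iigp1, an immunity-related GTPase, was 16589 at day 0 and 231.5 early. Psmb10, an immunoproteasome subunit, had a mean of 2392 at day 0 and was below the floor on every later array, at least 16.9-fold lower. Gbp3 was at least 7.96-fold lower early. Psmb10 and Gbp3 were above the floor on the 2 day 0 arrays only, so they passed the filter through day 0 alone. A fall was the only change open to them, and the counts above include both. Psmb8 fell 3.68-fold early on design b (adjusted p = 0.000527) and 7.53-fold late (adjusted p = 1.96e-06). Their part in the change of Wars was not tested.

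Aars, the alanyl-tRNA synthetase, and Nars, the asparaginyl-tRNA synthetase, fell early and stood nearer to day 0 late. One Aars probe set read 1168, 648, 500, 472, 573, 546, 816, 744, 981, 870, 1036 and 1012 over experiment A, and 1090, 549, 827 and 949 over experiment B. Nars read 2063, 982, 1066, 1389, 1049, 1067, 1608, 1117, 1451, 1588, 1929 and 1764 in experiment A, and 2127, 1030, 1163 and 1572 in experiment B. In these 2 probe sets no early array overlapped a late one. Aars fell by 1.07 ± 0.27 on the log2 scale early (2.10-fold, adjusted p = 0.0278), and its difference from day 0 was -0.71 ± 0.26 in the middle phase (adjusted p = 0.103) and -0.22 ± 0.26 late (adjusted p = 0.659). The early call ended without either day 0 array or without day 2 or 3 of experiment A (adjusted p between 0.0537 and 0.145). The second Aars probe set, at 2300 and 1125 at day 0 and between 446 and 878 early, differed by -1.41 ± 0.40 early (adjusted p = 0.0574), and its late arrays, between 568 and 1394, overlapped the early ones. It passed with the block early (-1.59 ± 0.29, adjusted p = 0.00255) and in the middle phase (-1.38 ± 0.28, adjusted p = 0.00286). Nars fell by 0.92 ± 0.25 early (1.89-fold, adjusted p = 0.0431) and by 0.82 ± 0.24 in the middle phase (1.77-fold, adjusted p = 0.0373), and differed by -0.34 ± 0.24 late (adjusted p = 0.448). Its early call ended without any one of 10 arrays (adjusted p between 0.054 and 0.243) and its middle call without any one of 6 (adjusted p between 0.0511 and 0.218). Both also ended with quantile normalization (adjusted p = 0.0691 and 0.0636) and with no filter (0.0726 and 0.0615).

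Cars, the cysteinyl-tRNA synthetase, read 663 and 551 at day 0 and 261, 316, 185, 226 and 236 in the middle phase, when it fell by 1.33 ± 0.35 on the log2 scale (2.51-fold, adjusted p = 0.0239). That call ended without either day 0 array or without day 6 or 7 of experiment A (adjusted p between 0.0507 and 0.163). Late it differed by -0.98 ± 0.35 (adjusted p = 0.0906), and passed with experiment as a block (-1.12 ± 0.29, adjusted p = 0.0133). Rars, the arginyl-tRNA synthetase, was dim, at 237 and 755 at day 0 and 174, 217, 63, 58 and 8 late, and fell late by 1.40 ± 0.43 (2.64-fold, a low estimate, adjusted p = 0.0406). Without the day 0 array of experiment B its late difference was 1.47-fold (adjusted p = 0.72), without that of A 4.72-fold (adjusted p = 0.00655), and it ended without any one of 8 other arrays too (adjusted p between 0.0503 and 0.0778), and under another normalization, floor, filter, scale or late phase limit (adjusted p between 0.0584 and 0.0986). Rars also passed with the block in the middle phase (-1.11 ± 0.35, adjusted p = 0.0481). The 3 probe sets of Eprs, the bifunctional glutamyl-prolyl-tRNA synthetase, differed late by -0.69, -0.23 and -0.32 and passed in no comparison, with intensities from -156 to 1087. Farsa, Farsb, Hars, Mars1, Qars, Sars and Tars also passed in none, at late differences from -0.46 to -0.88, and Yars, at 0.19 late, was the tested synthetase above 0. Gars was not analysed here.

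Between the early and late phases no member passed the limma test, beside 0.984% of all probe sets (0.427% higher and 0.557% lower). An unadjusted p below 0.05 was found for 14 members and for 773 of all 7726 probe sets. With experiment as a block 1 passed, beside 2.38% of all: the first Aars probe set, which rose from the early to the late phase by 0.85 ± 0.18 on the log2 scale (adjusted p = 0.0166, and 0.056 without the block). The 4 early and 5 late arrays did not overlap for 7 of the 67 members, beside 3.86% of all probe sets. The median difference was 0.08 over the synthetases, -0.20 over the eIF3 and over the eIF4 probe sets, and 0.05 over all probe sets tested. Over the time course, tested with a spline in day, 11 members passed, beside 9.73% of all probe sets, and 16 with the block, beside 16.1%. The 11 were Aars, Eef1b2, Eef1g, Eif1a, Eif1b, Eif2s2, Eif3h, Eif4a1, Eif4a2, Eif5a and Eif6. The smallest adjusted p among them was 1.73e-05, for Eif4a2.

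Between the 2 experiments, on the 4 days both cover, 5 members passed, beside 9.68% of all probe sets, and all 5 were lower in experiment B (5.32% of all probe sets were lower and 4.36% higher). They were 2 Eef1a1 probe sets (-1.12 ± 0.22 on design a, adjusted p = 0.039, and -1.34 ± 0.15 on design b, adjusted p = 0.0324), Eef2 (-0.94 ± 0.05, adjusted p = 0.0244), Eif4ebp1 (-0.87 ± 0.15, adjusted p = 0.035) and 1 of Eif1a (-1.13 ± 0.22, adjusted p = 0.0383). On design a, the Eef1a1 probe set that passed read 25266, 22330, 16143 and 15857 in experiment A and 8519, 8828, 6739 and 12629 in experiment B on days 0, 2, 4 and 9, with no overlap. The Eef1a1 probe sets that did not pass were lower in B on days 0 and 2 but higher on days 4 and 9 (at day 9, 957 in A against 3735 in B, and 2128 against 4533). The other Eif1a probe set was higher in B on each of these days, at 764, 403, 490 and 429 against 317, 270, 293 and 304 in A. With all 8 arrays, 27 members had an unadjusted p below 0.05, beside 2329 of all 7726 probe sets. No member passed the adjusted limma test once any of the 8 was left out. None passed either when the arrays' noise or their Gapdh ratio, both of which differed between the experiments, entered as a covariate. Under each of these alternatives 0 of all 7726 probe sets passed, so the loss was not particular to the members.

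Genes around the members were taken from lists chosen with earlier results of these data known, and their counts stand beside the shares of all probe sets given above. Of 17 tested probe sets of the integrated stress response and ATF4 targets, 2 fell early, 3 fell and 1 rose in the middle phase, and 3 fell and 2 rose late, with medians of -0.16, 0.00 and 0.11. The members that fell make amino acids: Asns, asparagine synthetase, had mean intensities of 1611 at day 0 and 406, 398 and 494 in the 3 later phases, and fell 4.20-fold early (adjusted p = 0.00323). Phgdh, the first enzyme of serine synthesis, fell 3.21-fold early and 4.61-fold late (adjusted p = 0.00478 and 0.000127), and Psat1, the next one, 3.93-fold late (adjusted p = 0.00464). Vldlr, a lipoprotein receptor, rose 9.38-fold late (adjusted p = 0.000323). From the early to the late phase 3 rose: Vldlr and, named after their values were seen, Ddit3 (adjusted p = 0.0162) and Atf5 (adjusted p = 0.0202). Of 8 tested probe sets of the Myc network, 3 fell early and in each later phase 3 fell and 1 rose, with medians of -0.41, -0.14 and 0.15. Myc itself had a mean of 400.0 at day 0 and 101.0 early, and fell by 1.38 on the log2 scale early (adjusted p = 0.00221) and by 1.27 late (adjusted p = 0.00116), with arrays at the floor. Ncl, the nucleolar protein nucleolin, fell 3.69-fold early (adjusted p = 0.0056). Cad, the first enzyme complex of pyrimidine synthesis, was at least 2.08-fold lower in each phase. It was above the floor on the 2 day 0 arrays only and passed the filter through day 0 alone. Cad, 1 of the 3 counted as fallen, could therefore only fall. Mxi1, a Myc antagonist, rose 2.65-fold late (adjusted p = 0.0214).

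In the TOR pathway and translation kinases, 1 of 11 tested probe sets passed in each phase, beside 3.49%, 8.19% and 10.9% of all probe sets, with medians of 0.13, 0.33 and 0.39. It was Pdcd4, whose protein is known to bind and inhibit eIF4A. Its mean intensity was 105 at day 0 and 461.5, 776 and 557 later, and it rose 2.98-fold early (adjusted p = 0.0191), 5.29-fold in the middle phase (adjusted p = 0.000241) and 3.75-fold late (adjusted p = 0.00143). Of 21 tested probe sets of other translation machinery, none passed early, although 5 had an unadjusted p below 0.05, as 1009 of all 7726 did. In the middle phase 1 fell, and late 3 did: the release factor Etf1 (2.99-fold, adjusted p = 0.0271), the ribosome recycling factor Abce1 (3.08-fold, adjusted p = 0.0373) and the signal recognition particle gene Srp9 (2.64-fold, adjusted p = 0.0304). The other tested probe sets of these genes did not pass late: those of Etf1 differed by -0.56 and -0.10 on the log2 scale, that of Abce1 by 0.00 and those of Srp9 by 0.23 and -0.85. Their medians were -0.61, -0.46 and -0.69. Of 5 tested probe sets of mitochondrial translation, 1 fell in each phase, with medians of -0.63, -0.55 and -0.58. It was Iars2, the mitochondrial isoleucyl-tRNA synthetase, which fell 2.16-fold early (adjusted p = 0.0135) and 2.03-fold late (adjusted p = 0.00759). Its second probe set did not pass (log2 difference -0.58 late, adjusted p = 0.0919).

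The 15 member probe sets left out of the tests were those of Eef1a2, Eif3i, Eif3j1, Eif4e, Eif4enif1, Eif4h and Kars, which had no other, the 2 of Yars besides the tested one, and 1 each of Eef2, Eif1a, Eif2s2, Eif3b, Eif4ebp2 and Eif5a. Of these, 14 were above the floor on no array and 1, of Yars, on 1 array. Their counts are therefore not part of any share above. Of the 14 genes with over 1 tested probe set, Eef1a1 and Eif2d had late differences of both signs, and the probe sets of the other genes had the same sign.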

How the data were processed

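Total RNA of UB/OC-1 cells was measured on 2 oligonucleotide array designs, 16 arrays each. The deposited tables hold intensity values, which the authors had scaled, as the values themselves show: linear whole numbers, 22.9% (design a) and 33% (design b) of them negative, with equal trimmed means (2% left out at each end). The software behind them is not given in the sources used here. Groups came from the labels' day and experiment, and gene symbols from the platform annotation. Of each design, 61 controls were left out.

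Intensities below a floor (the 75th percentile of the size of a design's negative values) were set to it, log2 was taken, and probe sets above it on at least 2 of 16 arrays were tested with limma 3.58.1 in R 4.3.3 (eBayes with trend and robust, two-sided), with p-values adjusted by Benjamini-Hochberg over both designs. Phase means were compared with 12 residual degrees of freedom. Change over days was tested with the F statistic of a spline (natural, 3 degrees of freedom), and the experiments were compared on 8 arrays with day as a block, with 3 residual degrees of freedom. The scripts were tested on simulated data. Folds and SEs refer to floored log2 values, so a fold of a dim probe set is a low estimate. The precision is limited by the number of arrays.

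The experiments pair the arrays: deviations of the same experiment correlated at 0.33 to 0.70 over the pairs of shared days, so blocked values are given where they change a call. Members and gene lists were chosen with earlier results of these data known. Values are given for members that passed a phase comparison, for the 5 brightest of each design and for a fixed set of factors. Other genes are named from the lists, at most 4 each besides those marked as named after their values were seen. Promoters are RefSeq windows on GRCm38.p6. Alternatives covered the floor, filter, scale, normalization, moderation, phase limits, covariates, blocks and leaving out each array.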

Additional observations from a re-analysis of the deposited data

Results flagged for a closer look

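Within phases of 4 or 5 arrays, 13 values in 90 groups tested (1 member probe set in 1 phase each) stood apart from the other arrays by Dixon's criterion, which chance meets in about 1 of 20 groups. In the early phase, day 1 of experiment A was apart for Eif5a (3377, above the others), for Wars (362, below) and for Eif2ak2 (188, above), and day 2 of experiment B for Eif6 (339, above). In the middle phase, day 4 of experiment B was apart for 2 Eprs probe sets (573 and 172, above), for Eif4g2 (1205, above) and for Eef1a1 (6739, below). Also in the middle phase, Nars was apart at day 6 of experiment A (1608, above), Eef2k at day 7 (145, above) and the remaining Eprs probe set at day 4 (215, above). In the late phase, Cars was apart at day 9 of experiment B (192, below) and that Eprs probe set at day 9 of experiment A (207, above). The test used floored values, so for Eif6, Eif2ak2, Eef2k and 2 of the Eprs probe sets the other arrays of the phase were all at the floor.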

How the results depend on the processing

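Each result was recomputed under up to 31 alternatives, 16 of which left out 1 array. None of the 29 calls of a member in a phase comparison changed direction, while differences that did not pass changed sign under some alternatives, that of Eif2b2 among them. Of the 29, 5 calls held in every alternative that tested them: Eif6 and Eif4a2 in the middle and late phases and Eef1g late. Eif6, above the floor on 3 arrays, was left out by the filter on 8 arrays, so its calls were not checked there. Early, 4 members passed with quantile normalization, 4 without a filter and 4 with early taken as days 1 and 2. Of all probe sets, 113 rose and 163 fell of 7722 with quantile normalization, and 74 and 110 of 13057 without a filter. With early as days 1 and 2, 70 rose and 102 fell of 7726. The early median was -0.32 without a filter and -0.36 in experiment A alone. In the middle phase, 14 passed with the higher floor, 16 with experiment as a replicate block, 15 with the noise level and 14 with the Gapdh ratio as a covariate, and the median was -0.47 with the block. Of all probe sets, 236 rose and 392 fell of 5675 with the higher floor. Of 7726, 463 rose and 496 fell with the block, 452 and 468 with the noise level, and 370 and 376 with the Gapdh ratio. Late, the median was -0.38 without a filter. Between late and early, 1 passed with the higher floor, with the filter on 8 arrays, on the arcsinh scale, without trend and robust moderation, with the replicate block and with the Gapdh ratio, and 2 with the noise level. Of all probe sets, 38 rose and 49 fell of 5675 with the higher floor, and 41 and 48 of 5665 with the filter. Of 7726, 35 rose and 43 fell on the arcsinh scale, and 47 and 55 without trend and robust moderation. With the block 82 rose and 102 fell, with the Gapdh ratio 66 and 75, and with the noise level 87 and 83. Over the time course, 7 passed in experiment A alone. Between the experiments, 14 passed without a filter, 16 with the filter on 8 arrays, 14 on the arcsinh scale, 3 without the day block (no replicate block) and 0 with either covariate. Of all probe sets, 607 were higher and 826 lower in experiment B of 13057 without a filter, and 593 and 857 of 5665 with the filter. Of 7726, 750 were higher and 904 lower on the arcsinh scale, 275 and 421 without the day block, and 0 with either covariate. The causes were not tested. Experiment A alone has 1 array at day 0 and fewer arrays throughout. Leaving out 1 array gave 2 to 8 called members early, 4 to 10 in the middle phase, 6 to 14 late, 0 between late and early, 7 to 12 over the time course and 0 between the experiments, there over the 8 arrays compared. The medians then ran from -0.62 to -0.28 early, from -0.74 to -0.47 in the middle phase, from -0.69 to -0.41 late and from -0.16 to -0.06 between late and early. Counts over all 7726 probe sets moved too. Early, 70 rose and 102 fell without day 3 of experiment A, and 161 and 177 without day 1. In the middle phase, 213 and 251 did without day 7 of A, and 318 and 399 without day 4 of B. Late, 283 and 381 did without day 9 of A, and 413 and 516 without day 9 of B. Shares without a day 0 array are given above. Over the time course, no count of all probe sets stands beside the members' here or in experiment A alone. Calls that the block added are given with each gene, except those over the time course (Cars, Eef1d, Eif4e2, Eif4ebp1 and the design b probe set of Eif1b). It ended none. Dim members, such as Rars, Eif2ak2 and Eprs, are limited by signal over background.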
